A study of Rattus norvegicus with 12 samples.

Results

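The genes Adipoq, Cidec, Cidea, Plin1, Fabp4, Lep, Cfd, Retn, Ucp1 and Ucp3, which are known from white fat cells and from the browning of fat, were followed in the rat left ventricle. The genes were chosen by symbol and by no cut on a measured value, and all 10 were found among the 34700 genes of the deposited table, each on 1 row. Earlier results of these data were in view when the list was made, so their values describe these rats and give no independent support for any pattern among them.

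Male Sprague-Dawley rats entered the study at 8 weeks of age, and the hearts were taken 12 weeks after surgery. The Sham rats had a thread passed around the left anterior descending coronary artery without ligation, and the HF rats had the artery ligated and stayed sedentary. The HFE rats had the same ligation and were trained by treadmill running (60 min on each of 5 days a week, over 8 weeks), while the BAIBA rats had the ligation and received β-aminoisobutyric acid by gavage at 75 mg/kg/day for 8 weeks. By the methods, Sham and HF rats received water by gavage, whereas a supplementary description assigns BAIBA to those groups instead. The labels and the methods were followed here, and every comparison of the BAIBA group rests on that. The methods list HFE in an exercise study and BAIBA in a separate study, each with its own Sham and HF groups, and state no gavage for HFE rats. From which study the sequenced Sham and HF rats came is not stated in the methods. Each group held 3 rats, 12 in all, and no transgene or deleted gene is named. The survivors of surgery had been sorted into groups by their ejection fraction. The wall sampled was the anterior left ventricle, and for the BAIBA group the methods name the zone around the infarct, although another passage places HF tissue there too, so the treatment and the place of sampling cannot be told apart in any comparison of that group.

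White fat cells store triglyceride in a single large droplet coated by perilipin 1 and enlarged by CIDEC, and they release adiponectin, leptin, resistin and adipsin into the blood. Brown and beige fat cells hold many small droplets and burn fuel for heat through UCP1, and BAIBA is known as a muscle-derived signal that raises browning genes in white fat. The heart carries fat cells beneath its outer lining, the epicardium, and its capillary endothelium and muscle cells use relatives of several of the same genes to take up and burn fatty acids.

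The deposited values were read counts per gene and FPKM (fragments scaled to the length of the gene and the depth of the library), the only scale used here to compare 1 gene with another. Within a gene, CPM (counts scaled to the library total with TMM factors over the 12 rats) was used. Between 14812541 and 19732588 counts on genes were available for each rat, and a count of 0 allowed a level of up to 0.152 to 0.203 CPM depending on the rat (3 counts of the unscaled total, counting error only). The tissue carried the genes of heart muscle: the summed level of 7 cardiomyocyte markers was 21402 to 26197 FPKM in the 12 rats. The rats that stood apart for fat cell genes were HF rat 1, BAIBA rat 3 and Sham rat 3, and BAIBA rat 1 stood apart for genes of the mesothelium, the cell layer that covers the heart. For genes of atrial muscle, HF rats 2 and 3 and Sham rat 3 stood apart. Their values stand beside the results they touch.

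By level, the genes fell into clearly different ranges. Fabp4 was the most abundant, with a mean of 671 FPKM over the 12 rats (494 to 928), followed by Cidea with 98.4 FPKM (45.3 to 147). Cfd had 5.87 FPKM (2.84 to 12.1) and Ucp3 3.22 FPKM (0.384 to 11.4). Adipoq had 1.25 FPKM, Cidec 0.327, Plin1 0.313, Retn 0.241 and Lep 0.161 FPKM. For each of these 5 genes HF rat 1 was the highest and BAIBA rat 3 the next, followed by Sham rat 3 for all but Lep, where HFE rat 1 followed. Ucp1 had 0.00820 FPKM, from 2 reads in all. The defining white fat marker Adipoq was at 0 in 2 rats, Cidec and Retn in 4 rats each, Plin1 in 1 rat and Lep in none, while Ucp1 was at 0 in 10 of the 12. Of the genes that also mark fat, Fabp4 and Cidea were thus high in every heart, including hearts with 0 or 1 Adipoq read. In bulk tissue, fewer cells of a type and less RNA per cell cannot be told apart.

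**Figure D1:**
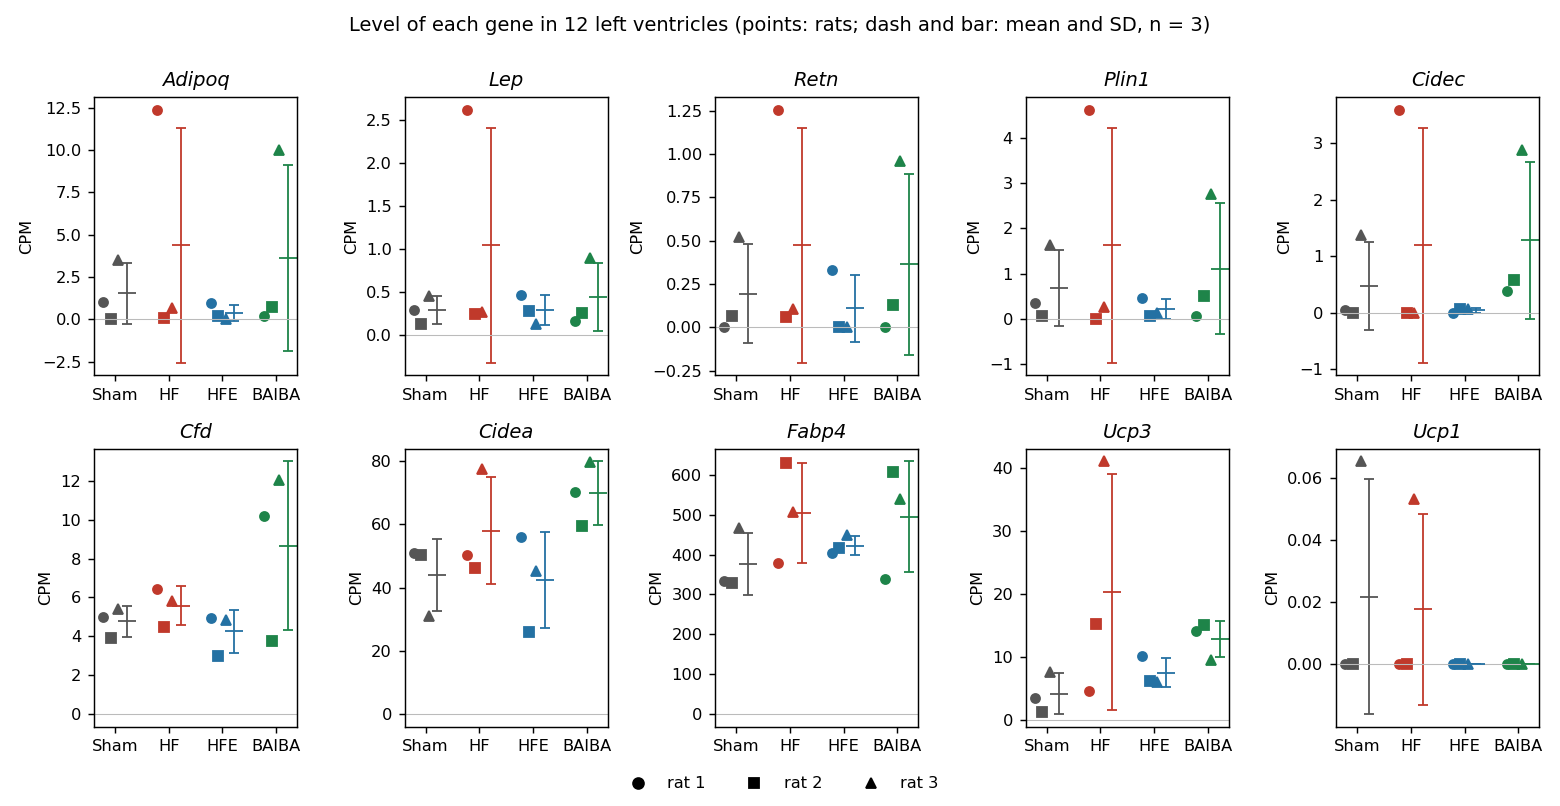
Level of each of the 10 genes in CPM (vertical axis, linear, 1 scale per panel) in each rat, by group (points) with the group mean and SD (dash and bar, n = 3; bars can pass below 0). Adipoq, Lep, Retn, Plin1 and Cidec were highest in HF rat 1 and next in BAIBA rat 3, whereas Cidea in the BAIBA group, at 59.5 to 79.7 CPM, lay above all Sham and HFE rats.

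The secreted products and droplet coats of white fat were described first. Adipoq, which encodes adiponectin, had 18, 0 and 54 reads in Sham rats 1, 2 and 3. It had 217, 1 and 13 reads in HF rats 1 to 3, 14, 3 and 0 in HFE rats 1 to 3, and 3, 11 and 166 in BAIBA rats 1 to 3. The means were 4.38 ± 6.94 CPM in HF, 3.62 ± 5.52 in BAIBA, 1.52 ± 1.81 in Sham and 0.380 ± 0.489 in HFE (SD, n = 3 each), and no neighbours in this order differed by more than the larger SD. Within every group a rat with at most 3 reads stood beside a rat with 14 or more, and the groups overlapped. Plin1, the perilipin that coats the droplet of fat cells and controls access of lipases, had 6, 1 and 25 reads in Sham, 81, 0 and 5 in HF, 7, 1 and 2 in HFE, and 1, 8 and 46 in BAIBA. Cidec, which lets droplets grow by passing lipid from one to another, had 1, 0 and 21 reads in Sham, 63, 0 and 0 in HF, 0, 1 and 1 in HFE, and 7, 9 and 48 in BAIBA. Both coat genes were highest in the same 3 rats as Adipoq.

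Lep, the gene of the satiety hormone leptin, had 5, 2 and 7 reads in Sham, 46, 4 and 5 in HF, 7, 4 and 2 in HFE, and 3, 4 and 15 in BAIBA. It was the most even of these 5 genes, with 2 to 7 reads in 10 of the 12 rats. Retn, the gene of resistin, had 0, 1 and 8 reads in Sham, 22, 1 and 2 in HF, 5, 0 and 0 in HFE, and 0, 2 and 16 in BAIBA. As for the others, HF rat 1 and BAIBA rat 3 were the highest and next highest.

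Together Adipoq, Plin1, Cidec, Lep and Retn had 995 reads over the 12 rats, and 835 of these (83.9%) were in 3 rats: 429 in HF rat 1, 291 in BAIBA rat 3 and 115 in Sham rat 3. The other 9 rats had 4 to 34 reads each. Adipoq made up 50.6% of the reads of the 5 genes in HF rat 1 (95% exact Clopper-Pearson interval 45.7% to 55.4%, counting error only), 57.0% in BAIBA rat 3 (51.1% to 62.8%) and 47.0% in Sham rat 3 (37.6% to 56.5%), and these intervals overlap. Plin1 made up 18.9%, 15.8% and 21.7% in the same 3 rats, and Cidec 14.7%, 16.5% and 18.3%. The share of Lep was 10.7% in HF rat 1 (7.96% to 14.04%) and 5.15% in BAIBA rat 3 (2.91% to 8.36%). For each of the 5 genes, the intervals of its share overlapped between these 3 hearts, which came from 3 different groups. For Lep the overlap was narrow. The 3 hearts were taken because they had at least 100 reads of these same genes. Overlap of intervals does not show that the shares were equal, which was not tested.

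**Figure D2:**
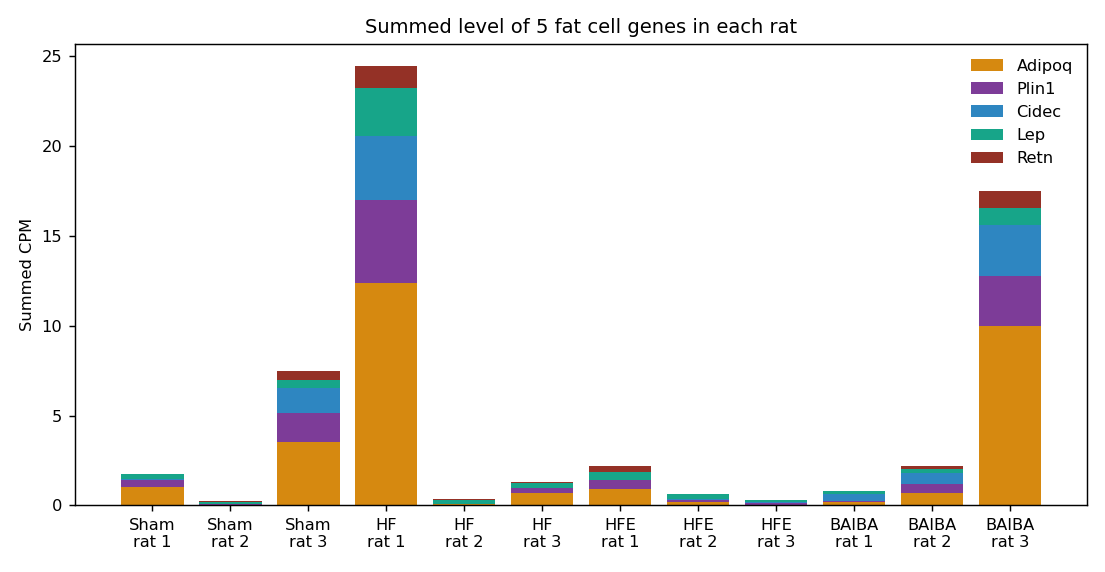
Summed level in CPM (vertical axis, from 0) of Adipoq, Plin1, Cidec, Lep and Retn in each of the 12 rats, 1 bar per rat, with 1 colour per gene. The bars of HF rat 1 (24.5 CPM), BAIBA rat 3 (17.5 CPM) and Sham rat 3 (7.50 CPM) stand above the other 9, which lie between 0.260 and 2.20 CPM.

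The genes whose pattern was most like that of Adipoq were ranked by Pearson's r of log2(CPM + 1) over the 12 rats among 15616 other genes, as a description, since all points share their library. Plin1 was the most like (r = 0.986, Spearman's rho = 0.890), followed by Thrsp, a regulator of fatty acid synthesis (r = 0.966, rho = 0.799), Car3, a carbonic anhydrase abundant in fat and slow muscle (r = 0.937, rho = 0.932), and Cidec (r = 0.937, rho = 0.629). Without HF rat 1 and BAIBA rat 3, which lie farthest from the median of Adipoq, r was 0.960 for Plin1, 0.844 for Thrsp, 0.895 for Car3 and 0.710 for Cidec over the 10 remaining rats. Next in the ranking were RGD1563986 (r = 0.888), Rbp4, the retinol carrier (r = 0.879), Mybpc1, of skeletal muscle (r = 0.836), Ubd (r = 0.833), Syne3 (r = 0.828) and Zfp709 (r = 0.827). For Rbp4, r was 0.410 without those 2 rats, so its likeness rests on them. Car3 had 33.0 CPM in HF rat 1, 27.5 in BAIBA rat 3 and 11.8 in Sham rat 3, and Thrsp had 8.33, 5.05 and 1.83 CPM in the same rats. In the other rats Thrsp had at most 0.448 CPM.

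Of 27 other white fat genes found in the table, HF rat 1 was the highest of the 12 rats for 9 (33.3%) and BAIBA rat 3 for 6 (22.2%), beside 11.1% and 5.42% of all 15617 genes above the count filter over the 12 rats. Sham rat 3 was the highest for 2 (7.41%, beside 4.91%) and BAIBA rat 1 for 3 (11.1%, beside 12.4%). The 27 genes include some below that filter, so these shares are over unlike sets of genes. The summed level of the 27 genes gave another order. BAIBA rat 3 had rank 1 of 12 (1249 FPKM), Sham rat 3 rank 5 (1127 FPKM) and HF rat 1 rank 10 (1034 FPKM). The summed level of 8 mesothelial markers was 16.9 FPKM in HF rat 1 and 22.1 FPKM in BAIBA rat 3. BAIBA rat 1, with 3 Adipoq reads, had the highest mesothelial sum of all, 61.3 FPKM, and was the highest of the 12 rats for 7 of the 8 markers. The other rats had sums of 7.08 to 9.88 FPKM, of which Wt1, found also outside the mesothelium, contributed most, at 5.82 to 8.92 FPKM over the 12 rats. The part of epicardial fat or lining in the sampled pieces was not tested.

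**Figure D3:**
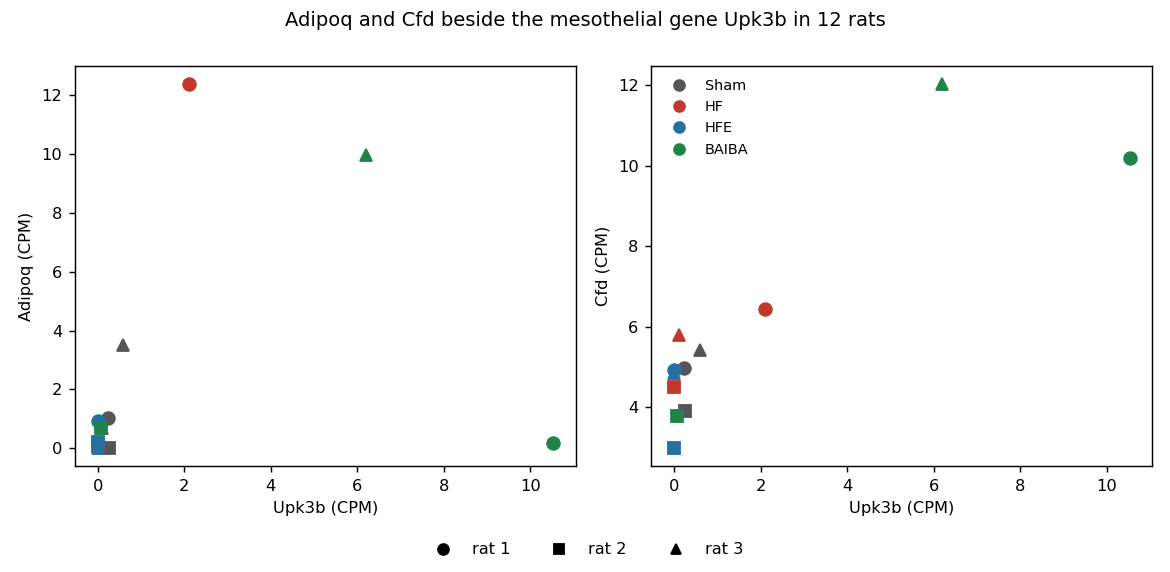
Adipoq (left) and Cfd (right) against the mesothelial marker Upk3b, all in CPM on linear axes, 1 point per rat, coloured by group and shaped by replicate number. BAIBA rat 1 had 10.5 CPM of Upk3b with 0.168 CPM of Adipoq and 10.2 CPM of Cfd, while HF rat 1 had 2.11 CPM of Upk3b with 12.4 CPM of Adipoq.

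The sequences before the starts of Adipoq, Plin1 and Cidec are shown because these genes moved together across the rats. They are RefSeq promoter windows of GRCr8, 250 bases before to 50 after the gene start, on the minus strand: chr11:91240120-91240419 for Adipoq, chr1:143086099-143086398 for Plin1 and chr4:148137066-148137365 for Cidec. Capitals mark ATTGG, the reverse complement, or the motif CCAAT itself. Searched on both strands, CCAAT was in 37.5% of 33465 promoter windows of this length, and AGGTCA, the core motif of nuclear receptors and also searched on both strands, was in 16.2%. The letters of these motifs do not overlap in the windows shown.
Adipoq: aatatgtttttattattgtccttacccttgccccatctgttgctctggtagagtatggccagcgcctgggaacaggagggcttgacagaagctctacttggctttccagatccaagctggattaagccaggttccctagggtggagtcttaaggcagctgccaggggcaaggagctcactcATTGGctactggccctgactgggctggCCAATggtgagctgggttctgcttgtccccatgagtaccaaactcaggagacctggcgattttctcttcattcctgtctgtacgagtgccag
Plin1: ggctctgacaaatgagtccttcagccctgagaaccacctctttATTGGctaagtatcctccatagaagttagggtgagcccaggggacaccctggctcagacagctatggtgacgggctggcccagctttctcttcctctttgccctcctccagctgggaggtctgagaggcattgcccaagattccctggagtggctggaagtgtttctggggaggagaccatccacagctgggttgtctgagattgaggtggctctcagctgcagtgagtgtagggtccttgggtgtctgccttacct
Cidec: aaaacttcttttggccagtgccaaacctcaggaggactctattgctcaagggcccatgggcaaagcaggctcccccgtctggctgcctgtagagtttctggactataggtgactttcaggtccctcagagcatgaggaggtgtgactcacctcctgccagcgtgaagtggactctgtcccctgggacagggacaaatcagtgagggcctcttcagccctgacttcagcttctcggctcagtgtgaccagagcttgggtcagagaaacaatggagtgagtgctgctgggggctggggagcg
The Adipoq window held 2 CCAAT matches, the Plin1 window 1 and the Cidec window none, and none of these windows held AGGTCA. Of the 10 genes, 9 were in the promoter table. Over those 9, CCAAT was found for Adipoq, Plin1, Lep and Cidea and AGGTCA for Retn and Ucp3. A match is a description of letters and not a binding site.

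Cfd encodes adipsin, a protease of the alternative complement pathway that fat cells and also myeloid cells make. Its level was 4.98, 3.90 and 5.41 CPM in Sham rats 1 to 3, 6.44, 4.50 and 5.79 in HF, 4.93, 2.98 and 4.85 in HFE, and 10.2, 3.78 and 12.03 in BAIBA. BAIBA rats 1 and 3 were thus above all others, and BAIBA rat 2 was the next to lowest of the 12. The means were 8.67 ± 4.33 CPM in BAIBA, 5.58 ± 0.989 in HF, 4.76 ± 0.778 in Sham and 4.25 ± 1.10 in HFE (SD, n = 3 each), and neighbours in this order lay within the larger SD of each other. Reads of Cfd kept no fixed proportion to Adipoq: there were 113 beside 217 of Adipoq in HF rat 1, 83 beside 54 in Sham rat 3 and 182 beside 3 in BAIBA rat 1. Across the 12 rats, the genes of the lists examined that were most like Cfd were the mesothelial markers Upk3b (r = 0.895, rank 8 of 15616) and Lrrn4 (r = 0.875, rank 14), with r of 0.597 and 0.557 after leaving out the 2 rats farthest from the median of Cfd. The summed level of 6 macrophage markers was 48.1 to 52.4 FPKM in Sham, 38.0 to 63.3 in HF, 23.5 to 38.0 in HFE and 37.0 to 101 in BAIBA. The part of lining cells or macrophages in the Cfd level was not tested.

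Fabp4 encodes a fatty acid binding protein that is abundant in fat cells and in capillary endothelium. Its level was 333, 328 and 466 CPM in Sham rats 1 to 3, 378, 629 and 507 in HF, 403, 416 and 448 in HFE, and 338, 606 and 539 in BAIBA. The highest rat was only 1.91 times the lowest, and HF rat 1, with the most Adipoq, was among the 4 lowest. The means were 505 ± 125 CPM in HF, 494 ± 139 in BAIBA, 422 ± 23.1 in HFE and 376 ± 78.1 in Sham (SD, n = 3 each), with neighbours within the larger SD. Among the genes of the lists, those most like Fabp4 were Lipe, the hormone-sensitive lipase (r = 0.861), Rgs5, a marker of pericytes (r = 0.830), and Gpihbp1, the capillary anchor of lipoprotein lipase (r = 0.807), all over the 12 rats. Gpihbp1 had a mean of 23.3 FPKM (13.6 to 34.1) and Lipe 11.6 to 21.98 FPKM. The muscle relative Fabp3 was higher than Fabp4 on the FPKM scale, at a mean of 2300.4 FPKM, and Fabp5 was at 32.1 FPKM.

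Cidea encodes a droplet protein used as a marker of brown and beige fat, and it belongs to the same family as Cidec. Its level was 50.9, 50.3 and 30.9 CPM in Sham rats 1 to 3, 50.5, 46.2 and 77.5 in HF, 56.1, 25.9 and 45.4 in HFE, and 70.4, 59.5 and 79.7 in BAIBA. Every BAIBA rat lay above every Sham and HFE rat and overlapped with HF only through HF rat 3. The summed level of 6 erythroid markers was 1644 to 2168 FPKM in BAIBA, 915 to 1371 in Sham and 1142 to 1432 in HFE. Every BAIBA rat thus lay above every Sham and HFE rat here too. Of the HF rats (908 to 1774), HF rat 3 reached the BAIBA range. HF rat 2, at 1632 FPKM, lay just below that range, although its Cidea level was the lowest of the HF group. Among these markers, r with Cidea over the 12 rats ran from -0.134 (Hba-a3) to 0.537 (Hba-a1). Among the genes of the lists, the macrophage markers Cd163 (r = 0.664, rank 139 of 15616) and Mrc1 (r = 0.660, rank 147) were the most like Cidea over the 12 rats. The part of either cell type in the Cidea level was not tested. Sham rat 3, which was among the highest for Adipoq, was the next to lowest for Cidea. The means were 69.9 ± 10.1 CPM in BAIBA, 58.1 ± 17.002 in HF, 44.0 ± 11.4 in Sham and 42.5 ± 15.3 in HFE (SD, n = 3 each), and neighbours in this order differed by less than the larger SD.

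Ucp1, the uncoupling protein that defines brown and beige fat, had 1 read in Sham rat 3, 1 read in HF rat 3 and 0 in the other 10 rats. In the BAIBA group, 0 of 49303715 counts allow up to 0.0608 CPM over the group, and in the HFE group 0 counts allow up to 0.0646 CPM. No fold is given for this gene. Of 22 other genes used as brown or beige fat markers, 20 were in the table, and Elovl3 and Zic1 were at 0 in all 12 rats. The most abundant were Cox8b (828 FPKM), Cpt1b (125 FPKM) and Ppara (10.3 FPKM), genes that heart muscle also uses. Prdm16, a transcriptional regulator of brown fat, was at 1.26 to 2.48 FPKM. Whether any heart held beige fat cells could not be seen at this depth from Ucp1.

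Ucp3 encodes an uncoupling protein of muscle mitochondria that is known to rise when fatty acid supply is high. Its level was 3.47, 1.30 and 7.63 CPM in Sham rats 1 to 3, 4.62, 15.2 and 41.0 in HF, 10.2, 6.24 and 6.05 in HFE, and 14.1, 15.0 and 9.56 in BAIBA. The highest rat, HF rat 3, was 31.5 times the lowest, Sham rat 2. The means were 20.3 ± 18.7 CPM in HF, 12.9 ± 2.90 in BAIBA, 7.49 ± 2.33 in HFE and 4.14 ± 3.22 in Sham (SD, n = 3 each). HF and BAIBA did not differ beyond their spread, while BAIBA over HFE and HFE over Sham each exceeded the larger SD although the rats overlapped. HF rat 1, with the most reads of the white fat genes, had the lowest Ucp3 of the HF group.

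The window before Ucp3 is shown because it holds AGGTCA, the core motif of nuclear receptors in general. It is the RefSeq window of GRCr8 at chr1:164227660-164227959 on the plus strand, with AGGTCA in capitals.
Ucp3: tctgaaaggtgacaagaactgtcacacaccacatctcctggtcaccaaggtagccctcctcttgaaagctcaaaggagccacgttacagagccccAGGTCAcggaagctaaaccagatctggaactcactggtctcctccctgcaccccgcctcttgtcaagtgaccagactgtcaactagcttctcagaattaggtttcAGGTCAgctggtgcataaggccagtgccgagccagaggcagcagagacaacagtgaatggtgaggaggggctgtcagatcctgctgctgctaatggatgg
It held 2 matches of AGGTCA, a motif found in 16.2% of all windows, and no CCAAT. The window of Retn, not shown, also held 2 matches of AGGTCA. Whether any receptor acts on these letters was not tested.

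Among genes with a symbol, Pld2 (r = 0.894), Adamts19 (r = 0.854), Dmac2 (r = 0.852), Nfatc4 (r = 0.847), Aloxe3 (r = 0.847), App (r = 0.845), Ackr2 (r = 0.839) and Qsox1 (r = 0.838) were the most like Ucp3 over the 12 rats. Of the 10 most like, 2 were genes assembled by the authors without a name (r = 0.941 and 0.878). From the list of 19 PPAR target genes, Angptl4, an inhibitor of lipoprotein lipase, had r = 0.832 (rank 13) and Pdk4, a kinase that inhibits pyruvate dehydrogenase, had r = 0.765 (rank 44). Without HF rat 3 and Sham rat 2, r was 0.855 for Angptl4 and 0.591 for Pdk4. Pdk4 had 46.2, 216 and 431 FPKM in HF rats 1 to 3, 52.3, 37.0 and 86.3 in Sham, 30.6, 23.2 and 59.9 in HFE, and 74.0, 140 and 133 in BAIBA. Angptl4 had 0.639, 5.43 and 9.02 FPKM in HF, 0.0607, 0.526 and 0.783 in Sham, 0.608, 0.210 and 0.385 in HFE, and 1.88, 1.80 and 1.32 in BAIBA. HF rats 2 and 3 were the highest of the 12 for both genes and for Ucp3. The other relatives were less variable: Ucp2, found in immune and many other cells, was at 27.6 to 177 FPKM, and Slc25a30 at 10.5 to 24.0 FPKM.

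**Figure D4:**
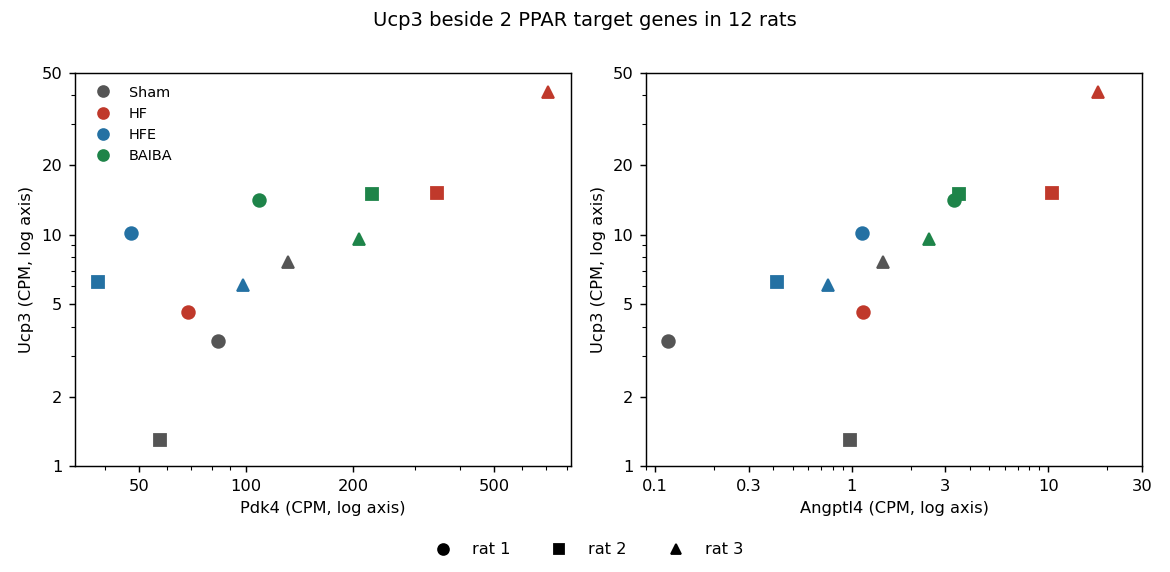
Ucp3 against Pdk4 (left) and Angptl4 (right) in CPM on log axes, 1 point per rat, coloured by group and shaped by replicate number. HF rat 3 was the highest for the 3 genes, with 41.0 CPM of Ucp3, 711 CPM of Pdk4 and 17.9 CPM of Angptl4, and the BAIBA rats (9.56 to 15.0 CPM of Ucp3) lay close together.

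The groups were then compared by edgeR's quasi-likelihood test on all genes, where a call needed an absolute log2 fold change over 1 together with an adjusted p (Benjamini-Hochberg, over all genes tested) below 0.05. Only Adipoq, Cidea, Fabp4, Cfd and Ucp3 passed the count filter in each comparison, and the other 5 genes were not tested by it. Same-group rats are separate samples in the labels, and p-values measure the spread between them. Comparisons that share the HF, Sham, HFE or BAIBA rats are not independent, and their values are given side by side only.

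Between HF and Sham, which asks what infarction did without treatment, none of the 5 tested genes was called, against 0% of 14957 genes (0 of 5 at an unadjusted p under 0.05, with 6% of all genes, and 0 of 8 by DESeq2, with 0.154%). Ucp3 had the largest fitted difference, with a log2 fold change of 2.29 (SE 0.97, edgeR adjusted p = 0.805). It was 1.25 without HF rat 3. Adipoq had 1.52 (SE 1.82, adjusted p = 0.917) and became -1.95 without HF rat 1. Fabp4 had 0.42 (SE 0.22), Cidea 0.39 (SE 0.26) and Cfd 0.22 (SE 0.22), with adjusted p of 0.808, 0.843 and 0.887. All 5 fitted values were above 0, with a median of 0.42 beside 0.01 over all genes tested, and none of the 5 separated the groups (11.7% of all genes did).

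Between HFE and HF, which asks what exercise did after infarction, none of the 5 was called by edgeR, against 0% of 14938 genes (0 of 5 at an unadjusted p under 0.05, with 7.62% of all genes, and 0 of 8 by DESeq2, with 0.119%). The log2 fold change was -3.52 for Adipoq (SE 1.92, adjusted p = 0.689), -1.43 for Ucp3 (SE 0.77, adjusted p = 0.689), -0.45 for Cidea (SE 0.32), -0.39 for Cfd (SE 0.26) and -0.25 for Fabp4 (SE 0.17). Without HF rat 1, the value for Adipoq was -0.03, and without HF rat 3, that for Ucp3 was -0.40. The median of the 5 was -0.45 beside -0.01 over all genes, and the rats of the groups overlapped for each (14.3% of all genes did not overlap).

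Between BAIBA and HF, which asks what BAIBA did after infarction, none of the 5 was called by edgeR, against 0% of 15039 genes (0 of 5 at an unadjusted p under 0.05, with 5.55% of all genes, and 0 of 8 by DESeq2, with 0.161%). The log2 fold change was 0.63 for Cfd (SE 0.41, adjusted p = 0.852), 0.27 for Cidea (SE 0.21), -0.03 for Fabp4 (SE 0.26), -0.29 for Adipoq (SE 1.90) and -0.65 for Ucp3 (SE 0.74, adjusted p = 0.908). The value for Ucp3 was 0.39 without HF rat 3, and that for Adipoq ran from -3.34 without BAIBA rat 3 to 3.21 without HF rat 1. Here 2 of the 5 were above 0 and 3 below, with a median of -0.03 beside -0.01 over all genes, and none separated the groups (11.4% of all genes did).

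**Figure D5:**
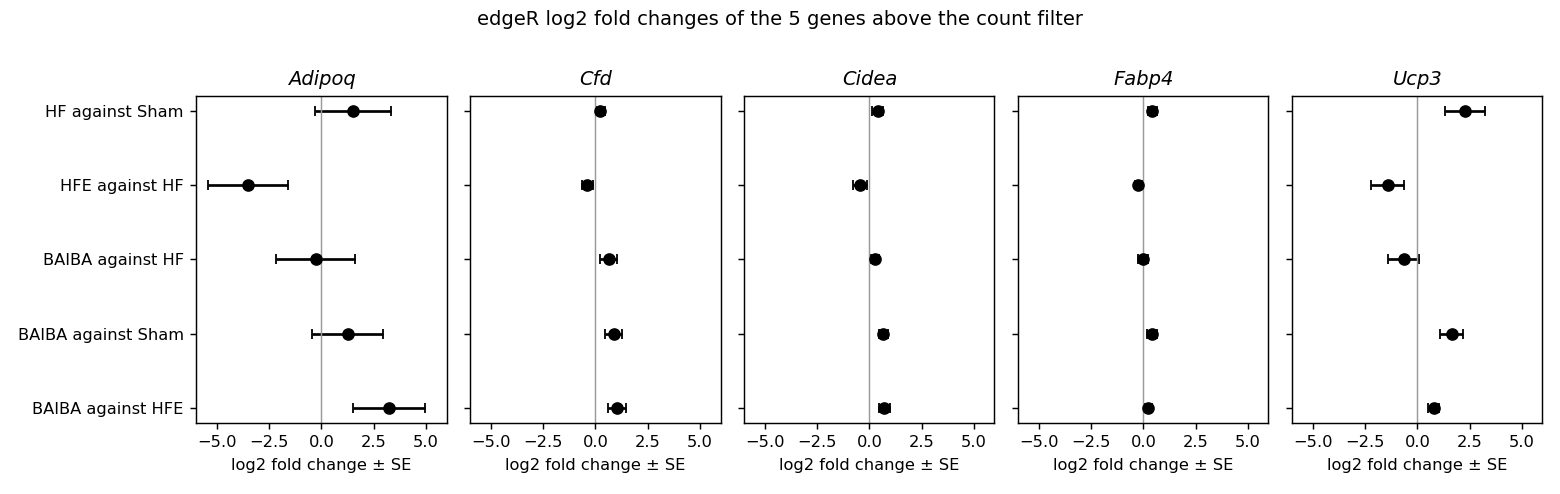
Log2 fold changes from edgeR (horizontal axis) with their SE (bars) for the 5 genes above the count filter in the 5 comparisons (rows), 3 rats per group. The bars of Adipoq span the widest range, with SE of 1.69 to 1.92. The values of all 5 genes lie to the right of 0 for BAIBA against Sham, BAIBA against HFE and HF against Sham.

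Between BAIBA and Sham, none of the 5 was called by edgeR, against 0.0402% of 14920 genes (0 of 9 by DESeq2, with 0.436%). At an unadjusted p under 0.05 there were 2 of 5, Cidea and Ucp3, with 7.41% of all genes. Cidea had a log2 fold change of 0.67 (SE 0.20, edgeR adjusted p = 0.570) and Ucp3 1.64 (SE 0.56, adjusted p = 0.624). By DESeq2 the adjusted p was lower, at 0.130 for Cidea and 0.0663 for Ucp3, and still above 0.05. For both, every BAIBA rat was above every Sham rat, which held for 6.58% of all genes (12.7% separated the groups in either direction). Cfd had 0.87 (SE 0.40, adjusted p = 0.703), Fabp4 0.40 (SE 0.24, adjusted p = 0.779) and Adipoq 1.25 (SE 1.69, adjusted p = 0.917), the last being -1.81 without BAIBA rat 3. The median of the 5 was 0.87 beside 0.00 over all genes.

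Between BAIBA and HFE, which sets the metabolite beside the exercise that produces it, none of the 5 was called by edgeR, against 0.0808% of 14844 genes. The methods place these groups in separate studies, so study, handling and treatment cannot be told apart here. At an unadjusted p under 0.05 there were 3 of 5, with 9.57% of all genes. Ucp3 had a log2 fold change of 0.78 (SE 0.26, edgeR adjusted p = 0.370), Cidea 0.72 (SE 0.27, adjusted p = 0.467) and Cfd 1.03 (SE 0.43, adjusted p = 0.508). Of the 5, only Cidea separated the groups, with every BAIBA rat above every HFE rat, as held for 7.3% of all genes (15.6% separated the groups in either direction). Adipoq had 3.23 (SE 1.74, adjusted p = 0.651), which was 0.18 without BAIBA rat 3, and Fabp4 had 0.23 (SE 0.20, adjusted p = 0.792). The median was 0.78 beside 0.00 over all genes.

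In the same comparison DESeq2 called 1 of the 7 genes to which it gave an adjusted p, against 1.09% of all genes, and this was Cidec. Its log2 fold change was 4.87 by DESeq2 (SE 1.39, adjusted p = 0.0287), from 7, 9 and 48 reads in the BAIBA rats and 0, 1 and 1 in the HFE rats. These do not overlap. Every BAIBA rat was above every HFE rat for 7.3% of the genes above edgeR's count filter, which Cidec did not pass. The call was lost when any 1 of the HFE rats was left out (DESeq2 adjusted p = 0.134 to 0.184), and without BAIBA rat 3 the value was 3.46 with no adjusted p. It was kept without BAIBA rat 1 or BAIBA rat 2 (DESeq2 adjusted p = 0.0139 and 0.0340). By edgeR without the count filter, the log2 fold change was 4.64 (SE 1.07, adjusted p = 0.150), and in an edgeR fit of all 12 rats it was 4.64 (SE 2.31, adjusted p = 0.523). Cidec was the only 1 of the 5 white fat genes for which BAIBA rats 1 and 2 both exceeded every HFE rat.

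The receptors of these hormones were present in every heart. Adipor1, an adiponectin receptor, was at 52.8 to 61.0 FPKM, Adipor2 at 12.9 to 19.9, Cap1, a binding partner of resistin, at 23.4 to 37.2, and Cdh13, which holds adiponectin at the cell surface, at 9.82 to 17.9 FPKM. Lepr, the leptin receptor, was at 0.0910 to 0.504 FPKM. None of the 6 receptor genes listed was called in any of the 5 comparisons.

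Other genes of fat storage were mostly without a call. Of 28 further white fat genes, 16 to 18 were tested in each comparison and 1 was called, and of 16 droplet coat and lipase genes, 14 were tested in each and the same 1 was called. This was G0s2, the inhibitor of the lipase ATGL. G0s2 had 39.0, 35.5 and 31.3 FPKM in HFE rats 1 to 3 and 20.3, 15.0 and 19.0 in BAIBA rats 1 to 3. The groups did not overlap, as held for 15.6% of all genes tested between them. For BAIBA against HFE, where 0.0808% of all genes were called, G0s2 had a log2 fold change of -1.02 (SE 0.13, edgeR adjusted p = 0.0493). Of 11 alternative settings, 3 kept this call and 8 lost it, with adjusted p from 3.68e-06 to 0.286. In Sham it had 14.1, 14.8 and 22.5 FPKM and in HF 22.9, 21.98 and 40.9. Pnpla2, the gene of ATGL itself, chosen for mention after its values were seen, was listed at 0 to 0.565 FPKM, and whether its reads were counted on another row was not tested. Lpl, the lipase that frees fatty acids from lipoproteins, was at a mean of 872 FPKM, Plin4 at 44.6 and Aqp7, a glycerol channel, at 43.0 FPKM. Pparg, the master regulator of fat cells, was not named by the rule and had 1.72 to 4.31 FPKM in the 12 rats.

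None of the brown and beige fat genes was called, with 9 to 11 tested in each comparison. Tbx1, a transcription factor also used as a beige fat marker, had a log2 fold change of 2.02 for BAIBA against Sham (SE 0.47, edgeR adjusted p = 0.374) and 1.45 against HFE (SE 0.47, adjusted p = 0.358). Prdm16 had 0.64 for HFE against HF (SE 0.17, adjusted p = 0.627) and -0.50 for BAIBA against HFE (SE 0.13, adjusted p = 0.248). The median of the list for BAIBA against Sham was -0.08, with 2 of 11 above 0, and for BAIBA against HFE -0.06, with 3 of 10 above 0. For BAIBA against HF it was 0.02, with 6 of 10 above 0. Most of the tested genes of this list thus lay on the other side of 0 from Cidea against Sham and HFE, but not against HF. The medians were small in each case.

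No PPAR target was called either, of 19 tested in each comparison, where at most 0.0808% of all genes were called. At an unadjusted edgeR p under 0.05 there were 2 of 19 for HF against Sham (6% of all genes) and 7 for HFE against HF (7.62%). There were 0 for BAIBA against HF (5.55%), 7 for BAIBA against Sham (7.41%) and 6 for BAIBA against HFE (9.57%). The list was chosen with earlier results known, so these counts only describe. Angptl4 had the largest values, with a log2 fold change of 3.55 for HF against Sham (SE 1.15, edgeR adjusted p = 0.805), -3.65 for HFE against HF (SE 1.01, adjusted p = 0.627) and 2.00 for BAIBA against HFE (SE 0.39, adjusted p = 0.156). Pdk4 had 2.04 (SE 0.85, adjusted p = 0.805), -2.61 (SE 0.90, adjusted p = 0.634) and 1.57 (SE 0.45, adjusted p = 0.351) in the same comparisons. These had the same sign as Ucp3 each time, while Fabp3, the most abundant of the list, had 0.02 for HF against Sham (SE 0.08). The median of the list for HF against Sham was 0.14, with 16 of 19 above 0. It was -0.06 for HFE against HF (6 above 0) and -0.03 for BAIBA against HF (8 above 0). For BAIBA it was 0.12 against Sham (13 above 0) and 0.05 against HFE (10 above 0).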

How the data were processed

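Left ventricular RNA of 12 rats was bound to oligo(dT) beads and sequenced as paired-end libraries. The authors aligned reads with HISAT2, used StringTie to assemble genes missing from the annotation, and counted reads per gene with featureCounts. The deposited counts are raw whole numbers, and in the deposited FPKM values the authors divided these by depth and gene length. Versions, and whether the counting used strand, are not given in the sources used here. The submitters' processing notes list mm9, a mouse build, while the gene identifiers are those of rat, so no coordinates were taken from the files. Of 34700 genes, 32623 had an Ensembl identifier.

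The 10 genes and all gene lists were chosen with earlier results of these data known. Counts were fitted in R 4.3.3 with edgeR 4.0.16 (filterByExpr, TMM, robust quasi-likelihood) on the 2 groups of each of 5 comparisons, without covariates, and p-values were adjusted over all genes tested. Standard errors were derived from the fold change and its F statistic. DESeq2 1.42.0, library-size scaling, no filter, a joint fit of all 12 rats, a block for the replicate number, and leaving out each rat in turn were alternatives. The procedure was tested on simulated data. No pair of replicates was identical (chi-square per degree of freedom 11.8 to 33.7).

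Named genes were the 10 genes, from each list the called genes, the 3 most abundant and the 2 with the largest change in a comparison, and the 10 most like Adipoq and Ucp3. Lipe, Gpihbp1, Rgs5, Lrrn4, Cd163, Mrc1, Prdm16, Lepr, Cdh13, Elovl3, Zic1 and Pparg were named outside that rule in at least some places, after their values were seen. The symbols Mlxipl, Dio2, Kng2, Pecam1, Hbb-b1, Myh1 and Myh4 were not matched. Cd36 was not analysed here. Promoter windows came from RefSeq (GRCr8), which placed no other gene over any of the 10.

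The labels number the replicates, and a shared number does not mean a shared animal. Correlations of the deviations of same-numbered rats from their group means were 0.118 to 0.224 for BAIBA against HFE, each above 0.1, and -0.08 to 0.12 in the other 4 comparisons.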

Additional observations from a re-analysis of the deposited data

How the results depend on the processing

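The count of called genes stayed at 0 under every alternative in 4 comparisons, and for BAIBA against HFE it was 1 (Cidec) by DESeq2 and 0 under the others. With the replicate number as a block, 0 of the 5 tested genes were called in each comparison. Only for BAIBA against HFE did every same-numbered pair of rats correlate above 0.1, and these were different animals. There the block changed no call but lowered the edgeR adjusted p. It went from 0.467 to 0.154 for Cidea, from 0.508 to 0.176 for Cfd and from 0.370 to 0.163 for Ucp3. The source of the shared deviations was not tested, and the main fits ignore them. The block turned Adipoq for BAIBA against HF from -0.29 to a log2 fold change of 0.73.

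With each rat left out in turn, 142 of 150 log2 fold changes kept their sign and none became a call, and 124 of 125 kept it under the other settings. The 8 changes of sign with a rat left out fell on 5 pairs of gene and comparison. Adipoq ran from -1.95 to 3.03 for HF against Sham, from -3.34 to 3.21 for BAIBA against HF (3.21 without HF rat 1, 0.29 without BAIBA rat 1 and 0.20 without BAIBA rat 2) and from -1.81 to 2.75 for BAIBA against Sham. For BAIBA against HF, Fabp4 ran from -0.20 to 0.19 (0.16 without HF rat 2 and 0.19 without BAIBA rat 1) and Ucp3 from -1.12 to 0.39. Cidec by DESeq2 for BAIBA against HFE, a fit with rats left out that was added after the call was seen, ran from 3.46 to 5.32. G0s2, also added after seeing the data, ran from -1.09 to -0.93. The causes were not tested.

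The other 5 genes fell below the count filter, and edgeR without that filter called none of them. The SE of Adipoq, up to 1.92, leaves changes of several fold in either direction possible.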
